A study of Homo sapiens with 72 samples.

Results

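The genes described here are 6 inhibitors of the cyclin-dependent kinases: CDKN1A, CDKN1B and CDKN1C of the CIP/KIP family and CDKN2A, CDKN2B and CDKN2C of the INK4 family. They were found by gene name among the non-control probes of a whole-genome microarray that carries 30142 gene names, and 10 probes bore 1 of the 6 names. The arrays measured messenger RNA in IMR-90 cells, an established strain of normal human lung fibroblasts. The dishes of an experiment were seeded from a single pool of cells, and the data describe 1 strain in culture. Irradiated cells grew on a thin Mylar dish bottom and received 0.5 Gy of α-particles. Bystander cells shared that dish and its medium, but grew on a thicker Mylar layer that the α-particles did not cross. Control cells were sham-irradiated (0 Gy), and all 3 treatments were harvested at 6 times, 0.5, 1 and 2 h after exposure and then at 4, 6 and 24 h. Each of the 18 combinations of treatment and time was represented by 4 arrays from 4 experiments (72 arrays), and arrays of 1 time that bear the same replicate number were taken as 1 experiment.

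Cells divide when cyclins activate their partner kinases, which then phosphorylate the retinoblastoma protein family and release E2F transcription factors. The CIP/KIP proteins p21, p27 and p57 bind cyclin-kinase complexes broadly, whereas the INK4 proteins bind the kinases CDK4 and CDK6 and keep D-type cyclins from activating them. After ionizing radiation, p53 activates transcription of CDKN1A, and the p21 protein halts the cell cycle, while the CDKN2A-CDKN2B locus is best known for its part in fibroblast senescence.

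RefSeq (GRCh38.p14) places CDKN1A on chromosome 6 (36676463 to 36687332), CDKN1B on chromosome 12 (12717368 to 12722369) and CDKN1C on chromosome 11 (2883218 to 2885775). CDKN2A (21967752 to 21995324) and CDKN2B (22002903 to 22009313) lie side by side on chromosome 9, and CDKN2C lies on chromosome 1 (50960745 to 50974634). The 250 bases upstream of a transcription start are printed for CDKN1A, the member whose messenger RNA changed most, and for CDKN1B, its relative with no called change. Capitals mark the GC box, GGGCGG, which is the core of the site bound by Sp1-type factors. The CDKN1A window is chr6:36678464-36678713 and the CDKN1B window is chr12:12717118-12717367, both on the plus strand.
CDKN1A: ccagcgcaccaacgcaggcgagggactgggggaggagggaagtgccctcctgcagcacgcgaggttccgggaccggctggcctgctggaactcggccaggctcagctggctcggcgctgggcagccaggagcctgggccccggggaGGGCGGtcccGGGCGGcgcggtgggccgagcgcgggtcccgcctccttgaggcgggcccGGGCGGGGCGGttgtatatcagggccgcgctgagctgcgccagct
CDKN1B: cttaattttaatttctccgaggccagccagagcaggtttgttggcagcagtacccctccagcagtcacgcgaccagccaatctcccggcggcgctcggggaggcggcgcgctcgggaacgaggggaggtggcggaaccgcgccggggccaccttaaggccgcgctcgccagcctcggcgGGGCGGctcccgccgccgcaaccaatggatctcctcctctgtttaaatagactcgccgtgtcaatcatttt
The CDKN1A window held 4 GC boxes, of which the last 2 share a base, in 76.4% G+C. The CDKN1B window held 1 GC box in 64.4% G+C. Of the windows not printed, those of CDKN2A held 1 and 0 GC boxes, that of CDKN2B 2 and those of CDKN2C 0, 5 and 1. Whether the number of GC boxes bears on the changes in messenger RNA was not tested. Of 35116 promoter windows of 250 bases, 42.6% had at least 1 GC box on either strand (GGGCGG or CCGCCC) and 7.63% had 4 or more. A TATA box (TATAAA, or TTTATA on the other strand) was found in 10.7% of all windows and a p53 half-site in 5.57%. Neither was matched in any of the 8 windows of these genes, which says only that these letters are not in these stretches.

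Signals were read as log2 levels relative to the 75th percentile of the same array, so a level of 0 is the brightness of that percentile and 1 unit is a doubling. Levels were compared between arrays for 1 probe and never between probes. Of the 10 probes, 9 were tested. CDKN1A had A_23_P59210 (levels 1.59 to 5.05) and A_24_P89457 (−3.34 to 1.13), CDKN1B had A_24_P81841 (−1.19 to 1.02) and the dim A_23_P204696 (−5.28 to −3.10), and CDKN1C had A_23_P428129 (−0.01 to 3.43). CDKN2A had A_23_P43490 (0.96 to 2.67) and A_23_P43484 (−0.96 to 1.43), CDKN2B had A_24_P360674 (−2.76 to 0.78) and CDKN2C had A_23_P85460 (−0.30 to 2.87). The second CDKN2B probe, A_23_P216812, was well above background on 48 of 72 arrays (−6.34 to −2.33) and was removed by the filter on dim probes. The tested probes were well above background on all 72 arrays, except A_23_P204696 on 70, and none was saturated.

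The cell type was checked with marker genes. All 10 fibroblast markers with a probe were well above background on all 72 arrays, among them the collagen gene COL1A2 (median level 7.31) and VIM (7.17). Markers of other cells were mixed: the epithelial CDH1 was well above background on 10 of 72 arrays, KRT5 on 1 and EPCAM on 44, the endothelial PECAM1 on 2 and CDH5 on 12, and the leukocyte PTPRC on 4. KRT8, KRT19 and SFTPC were well above background on all 72, as were VWF, KDR, TEK, CD3E, CD68, CD14 and ITGAM, and their part in the results was not tested. In these bulk samples, fewer cells making a transcript and less transcript per cell cannot be told apart. The 4 experiments differed from each other, and arrays of 1 time that bear the same number deviated together. Across times the numbers 3 and 4 did not keep their places at 0.5 h. Number 3 at 0.5 h resembled number 4 of the other times (median r = 0.62 over 15 pairs of arrays, across probes) more than number 3 (−0.34), and number 4 at 0.5 h resembled number 3 (0.64) more than number 4 (−0.40). Number 1 at 4, 6 and 24 h resembled numbers 1 (median r = 0.22 to 0.23) and 2 (0.23 to 0.24) of the other times about equally. Probes are not independent replicates. The tests between treatments were made within a time. An experiment is named below by its number at that time, and whether a number stands for the same experiment at every time was not tested.

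CDKN1A rose over control in the irradiated cells at 2, 4 and 6 h by both of its probes. By A_23_P59210 the irradiated arrays stood apart from both other groups at these times, and by A_24_P89457 they overlapped the bystanders at 6 h. At 2 h, the levels of A_23_P59210 in experiments 1 to 4 were 2.11, 1.59, 3.24 and 3.22 in the controls, 3.99, 3.73, 4.86 and 4.44 in the irradiated cells and 2.24, 1.97, 3.35 and 3.43 in the bystanders. Every irradiated value lay above every control and bystander value, whereas the bystander values interleaved with the controls as groups. Each bystander lay above its own control in 4 of 4 experiments, by 0.11 to 0.38. Without scaling between arrays, which moves all probes of an array alike, the mean difference was −0.07 and the median of all probes −0.26, so the probe lay above the median in both settings. The control cultures of experiments 1 and 2 were low and those of experiments 3 and 4 high. The irradiated level exceeded the control by 1.72 ± 0.39 (SD, n = 4) on the log2 scale, a 3.29-fold increase (95% confidence interval 2.65 to 4.07), with an adjusted p of 0.000442 in limma.

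The difference from control was widest at 4 h. The controls then read 1.85, 1.80, 3.51 and 3.90, the bystanders 2.82, 2.66, 3.42 and 2.90, and the irradiated cells 5.01, 4.88, 5.05 and 5.0. By this probe the irradiated arrays lay close together (4.99 ± 0.07), while their controls spread over 2 log2 units. By A_24_P89457 the irradiated arrays spread more (0.77 ± 0.40). The log2 difference of A_23_P59210 was 2.22 ± 1.06 (SD, n = 4), or 4.66-fold (2.86 to 7.61), with an adjusted p of 0.0156 in limma. At 6 h, the controls were 3.16, 2.16, 3.83 and 3.82, the bystanders 3.76, 3.40, 4.19 and 2.89, and the irradiated cells 4.84, 4.60, 4.95 and 4.54. The irradiated values were again all above the other groups, by 1.49 ± 0.75 over control (2.81-fold, 1.82 to 4.34, limma adjusted p = 0.0285). CDKN1A belongs to a gene list that the study chose at 4 h on these samples, so its 4 h call is not independent evidence.

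**Figure D1:**
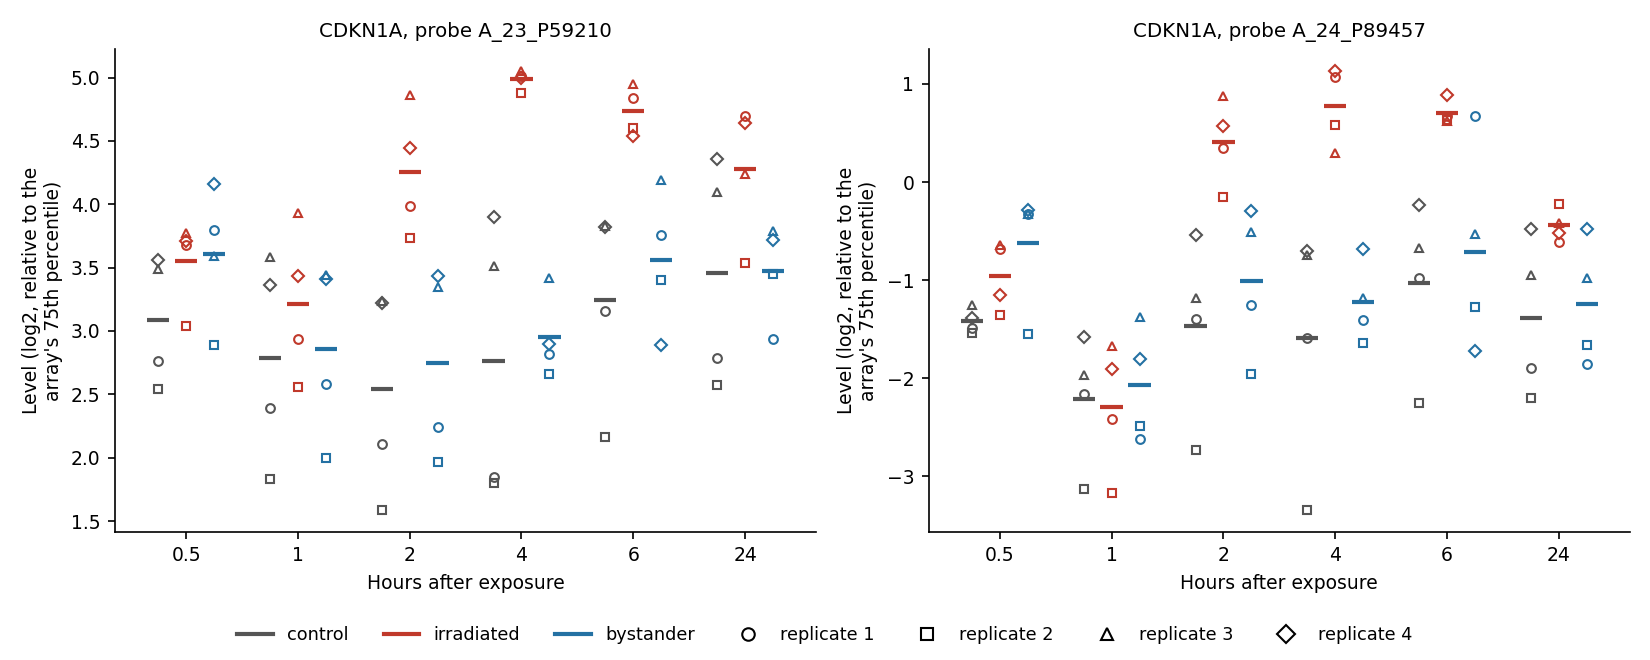
Log2 levels of CDKN1A probes A_23_P59210 (left) and A_24_P89457 (right), relative to each array's 75th percentile, by hours after exposure. Points are single arrays of control, irradiated and bystander cells (4 each) and bars are group means. By A_23_P59210 irradiated arrays lie above all others at 2, 4 and 6 h and sit between 4.88 and 5.05 at 4 h. By A_24_P89457 they sit between 0.30 and 1.13 at 4 h and overlap the bystanders at 6 h.

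At 0.5, 1 and 24 h, the irradiated level of A_23_P59210 was above its own control in 4 of 4 experiments, but the groups overlapped and the other probe differed at 1 h (−0.08 ± 0.28, higher in 1 of 4 experiments) and 24 h (0.94 ± 0.88, 3 of 4). The log2 differences were 0.46 ± 0.34 at 0.5 h (limma adjusted p = 0.124), 0.43 ± 0.28 at 1 h (0.138) and 0.83 ± 0.81 at 24 h (0.314). The 0.5 h difference passed under quantile normalization (limma adjusted p = 0.0566) and with the values of the authors (0.0975), and the 24 h difference in the fit of all 72 arrays (0.0844). At 24 h the gap was 1.91 in experiment 1 (4.70 against 2.79) and 0.14 in experiment 3 (4.24 against 4.10), and without experiment 1 the mean difference was 0.46. The largest step between neighbouring times was from 1 to 2 h, where the log2 ratio to control grew by 1.29 (SE 0.39, 95% interval 0.50 to 2.08). That step did not pass the threshold over all probes (limma adjusted p = 0.855), and neither did any other CDKN1A step. No probe of the array passed for that step, with 1217 at an unadjusted p below 0.05.

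The other CDKN1A probe, A_24_P89457, was also higher in irradiated cells than in controls at 2, 4 and 6 h. Its irradiated levels at 2 h were 0.35, −0.15, 0.88 and 0.57, against −1.40, −2.73, −1.18 and −0.54 in the controls. At 4 h they were 1.07, 0.58, 0.30 and 1.13, against −1.59, −3.34, −0.74 and −0.70. No irradiated value overlapped a control at 2, 4 or 6 h. The log2 differences were 1.87 ± 0.62 at 2 h (limma adjusted p = 0.00256), 2.36 ± 1.23 at 4 h (0.0198) and 1.74 ± 0.79 at 6 h (0.0572). The levels of both probes correlated over arrays centred within each time and experiment (r = 0.90 over 72 arrays, 24 trios), and the files annotate them to different transcript variants of the gene. Without experiment 1 the 4 h call of this probe ended (2.26, limma adjusted p = 0.172), and without experiment 2 its 6 h call (1.35, adjusted p = 0.147).

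Several of these calls ended under other settings. Without experiment 1, A_23_P59210 lost its call at 4 h (log2 difference 1.91, limma adjusted p = 0.147) and at 6 h (1.43, adjusted p = 0.105), and kept it at 2 h whichever experiment was left out. Without the pairing of cultures by experiment, the differences of 1.72 at 2 h and 1.49 at 6 h no longer passed (limma adjusted p = 0.572 and 0.172), and those of A_24_P89457 passed at none of 2, 4 and 6 h (0.522, 0.15 and 0.234). Without the filter on dim probes, which tests more probes, neither probe passed at 4 h (limma adjusted p = 0.169 and 0.187) or 6 h (0.116 and 0.168). Arrays of 1 time were spread over 3 slides, and every slide held arrays of more than 1 experiment, so differences within a slide are not paired by experiment. The irradiated arrays were above the controls of the same slide on 3 of 3 slides at 2 h (1.06 to 2.14), 4 h (1.09 to 3.19) and 6 h (0.72 to 2.18).

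In the bystander cells, A_23_P59210 was not called at any time with the main settings. The main settings are those described below ahead of the alternatives. The bystander level exceeded control by 0.52 ± 0.41 at 0.5 h, in 4 of 4 experiments (limma adjusted p = 0.112). That difference passed without experiment 3 (0.67, limma adjusted p = 0.0926), under quantile normalization (0.62, 0.0548) and with the values of the authors (0.55, 0.0871). It then differed by 0.07 ± 0.15 at 1 h, 0.21 ± 0.12 at 2 h (limma adjusted p = 0.486), 0.18 ± 0.92 at 4 h, 0.32 ± 0.92 at 6 h and 0.02 ± 0.66 at 24 h. Leaving out 1 experiment gave −0.08 (without experiment 1) to 0.58 (4) at 4 h, 0.01 (2) to 0.73 (4) at 6 h and −0.26 (2) to 0.24 (4) at 24 h. At 4 h the bystanders of experiments 1 and 2 were above their controls and those of experiments 3 and 4 below. The interval of the 4 h difference, −0.52 to 0.89, leaves room for a change of either sign. At 2 h A_24_P89457 was also higher in 4 of 4 experiments (0.46 ± 0.31, limma adjusted p = 0.307). A_24_P89457 was called higher in bystanders at 0.5 h (0.79 ± 0.54, limma adjusted p = 0.0632), in 3 of 4 experiments and with overlapping groups, and lost that call whichever experiment was left out (adjusted p = 0.126 to 0.2), without scaling (0.496), without the filter (0.14), without the pairing (0.35) and in the fit of all 72 arrays (0.191). Within slides, A_23_P59210 was higher in bystanders on 2 of 3 slides at 0.5 h (−0.67 to 1.16), and the −0.67 sets bystander 2 against control 4. Paired by experiment, the differences at 0.5 h were 0.09 to 1.05.

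Set directly against bystanders of the same experiment, irradiated cells had more CDKN1A at 2 h by both probes. The later differences did not pass the threshold with the main settings. The 4 paired log2 differences of A_23_P59210 averaged 1.51 ± 0.35 at 2 h, a 2.85-fold difference (2.30 to 3.53, limma adjusted p = 0.0123). At 4 h they averaged 2.04 ± 0.27, or 4.11-fold (2.52 to 6.71), without overlap of the groups, yet the adjusted p was 0.154 in limma. That difference did pass in the fit of all 72 arrays (2.04, limma adjusted p = 2.35e-05) and under normexp correction (1.99, 0.0654). At 6 h they averaged 1.17 ± 0.37, again without overlap (limma adjusted p = 1), and at 24 h 0.80 ± 0.72 in 4 of 4 experiments (adjusted p = 1) and 0.49 without experiment 1. At 0.5 h the difference was −0.06 ± 0.29 and at 1 h 0.36 ± 0.24, higher in 4 of 4 experiments (limma adjusted p = 0.922). A_24_P89457 read −0.33 ± 0.43 at 0.5 h and −0.22 ± 0.37 at 1 h, higher in 1 of 4 experiments at each, so the probes differed in sign at 1 h. It showed 1.42 ± 0.40 at 2 h (limma adjusted p = 0.0658) and 2.00 ± 0.44 at 4 h (0.195). At 6 h it showed 1.42 ± 1.12 with overlapping groups, since both cultures of experiment 1 read 0.67, and at 24 h 0.80 ± 0.68 in 3 of 4 experiments (limma adjusted p = 1 at both times). The 2 h call of A_23_P59210 ended without experiment 1, 2 or 3 (limma adjusted p = 0.309, 0.209 and 0.507) or without the pairing by experiment (adjusted p = 1), and that of A_24_P89457 in the same cases (adjusted p = 1, 0.545, 1 and 1). Both calls also ended without scaling (1.40 and 1.31, limma adjusted p = 0.142 and 0.551) and without the filter (0.12 and 0.809), and that of A_24_P89457 in the fit of all 72 arrays (0.27) and without the intensity trend (0.138). On slides that held both groups, the irradiated arrays were higher on 3 of 3 at 2 h (1.05 to 2.33), 4 h (1.84 to 2.31) and 6 h (1.00 to 1.37) by A_23_P59210. By A_24_P89457 they were higher on 3 of 3 at 2 and 4 h and on 2 of 3 at 6 h (0.00 to 2.02).

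In the order of the 18 group means of A_23_P59210, the irradiated cells at 4 h came first (4.99 ± 0.07), followed by irradiated cells at 6 h (4.73 ± 0.19), 24 h (4.28 ± 0.53) and 2 h (4.26 ± 0.50). Next came the bystanders at 0.5 h (3.61 ± 0.53), and the controls at 2 h were last at 2.54. Neighbours in this order differed by more than the SD of either group at 2 places only, between the first and the second mean (0.25) and between the fourth and the fifth (0.64). Times lie on different slides, so levels at different times carry the slide as well as the time.

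Over all 9 tested probes and 6 times, 9 of 54 irradiated-to-control tests were called (6 higher, 3 lower), 2 of 54 for bystanders against control (1 higher, 1 lower) and 2 of 54 for irradiated against bystander cells (both higher). All 6 higher calls of irradiated cells against control, and both against bystanders, came from the 2 probes of CDKN1A. Those probes moved together, so the counts below hold 1 gene by 2 probes. For irradiated against control, 1 of 9 probes was called at 0.5 h, where 9.90% of all tested probes were called, 2 at 2 h (5.78%), 3 at 4 h (1.00%) and 3 at 6 h (10.5%). None was called at 24 h, where 0.174% of all probes were, or at 1 h, where limma called 0% of all probes and 6795 had an unadjusted p below 0.05. Of the 9 probes, 3 had an unadjusted p below 0.05 at 24 h and 1 at 1 h. The 1 of 9 at 0.5 h is close to the share of all probes. For bystanders against control, 2 of 9 were called at 0.5 h (7.02% of all probes) and none at 2 h (0.218%), 4 h (0.594%) or 6 h (0.289%). At 1 and 24 h limma called 0% of all probes for this comparison, with 3623 and 2815 at an unadjusted p below 0.05. At those 5 times 0 to 3 of the 9 probes had an unadjusted p below 0.05. For irradiated against bystander cells, 2 of 9 were called at 2 h (0.0436%) and none at 4 h (0.00792%). There limma called 0% of all probes at 0.5, 1, 6 and 24 h, with 543, 1248, 383 and 100 at an unadjusted p below 0.05. At the 5 times without a call, 0 to 2 of the 9 probes had an unadjusted p below 0.05.

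**Figure D2:**
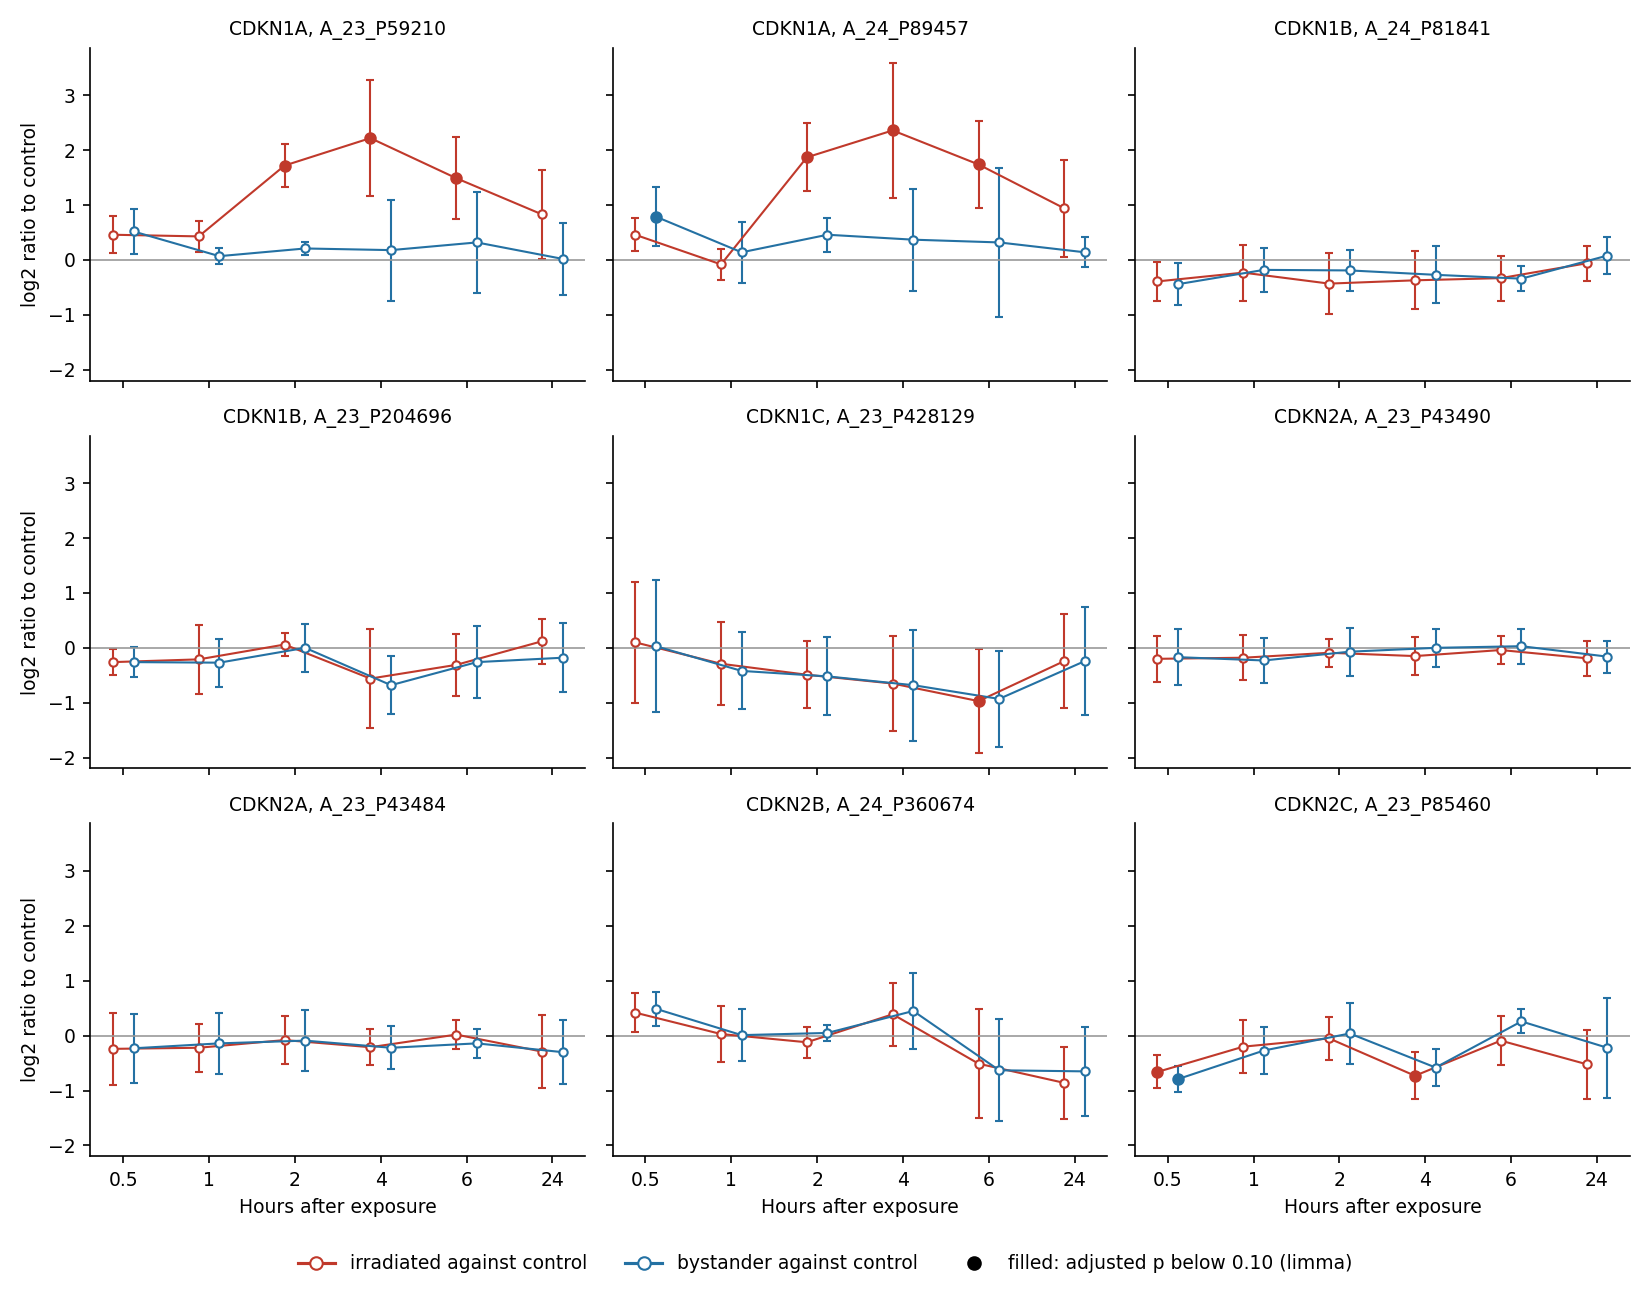
Mean log2 ratio to control of the 9 tested probes in irradiated and bystander cells, by hours after exposure, with error bars of 1 SD over 4 experiments. Filled points are called at an adjusted p below 0.10 in limma; both CDKN1A probes stand between 1.49 and 2.36 in irradiated cells at 2 to 6 h.

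CDKN1B, which encodes p27, was not called in any comparison. Here and below, a sign shared by 4 of 4 experiments is a description that was not tested. Such agreement can arise by chance, and not every case is named. At 2 h, A_24_P81841 in experiment 4 read −1.06 in irradiated and −0.58 in bystander cells against 0.19 in the control, whereas the other irradiated arrays lay between 0.25 and 0.39. The mean log2 ratio of that probe to control ranged over the 6 times from −0.43 to −0.06 in irradiated cells (smallest limma adjusted p = 0.158) and from −0.44 to 0.08 in bystanders (smallest 0.15). The ratio at 0.5 h was below 0 in 4 of 4 experiments in both treatments, by a mean of −0.39 and −0.44. It was also below 0 in 4 of 4 experiments in irradiated cells at 2 h (−0.43, limma adjusted p = 0.186). The difference there was −1.25 in experiment 4 and −0.22 to −0.11 in the others. Irradiated also lay below bystander cells at 2 h in 4 of 4 (−0.23, adjusted p = 1). In bystanders at 6 h the ratio to control was below 0 in 4 of 4 (−0.34, limma adjusted p = 0.381). Irradiated and bystander levels differed by −0.23 to 0.05, and the widest of these intervals was −0.55 to 0.34 at 4 h. The dim probe A_23_P204696 read −0.56 to 0.12 in irradiated cells and −0.68 to 0.00 in bystanders. In bystanders it was below control in 4 of 4 experiments at 0.5 h (−0.26, limma adjusted p = 0.382) and 4 h (−0.68 ± 0.53, 0.311).

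CDKN1C, which encodes p57, was called lower in irradiated cells at 6 h. The controls read 2.32, 2.73, 3.31 and 2.35, the irradiated cells 2.08, 2.13, 2.63 and −0.01, and the bystanders 1.77, 2.41, 2.68 and 0.13. The exposed cultures of experiment 4 were far below the others, and the remaining irradiated and control values overlapped. The irradiated ratio was −0.97 ± 0.95, lower in 4 of 4 experiments (limma adjusted p = 0.0903). The bystander ratio was −0.93 ± 0.87, also lower in 4 of 4 (limma adjusted p = 0.248). Without experiment 4 the irradiated ratio was −0.50 (limma adjusted p = 0.321), and the call was also lost without experiment 1, 2 or 3 (−1.21, −1.09 and −1.06, adjusted p = 0.122, 0.13 and 0.15), without the pairing (−0.97, adjusted p = 0.442), without the filter (0.219) and without the intensity trend (0.107). The exposed cultures numbered 4 also read low at the other times from 1 h on, with 1.71 in irradiated and 1.75 in bystander cells against 3.07 in the control at 1 h, 1.36 and 1.19 against 2.75 at 2 h, 0.45 and 0.17 against 2.38 at 4 h, and 1.08 and 0.85 against 2.58 at 24 h. At 0.5 h it was number 3 that read low, 1.52 and 1.37 against 2.92. At these times the exposed cultures of 1 number were low together, and irradiated and bystander cells differed by −0.04 to 0.13 on average over the 6 times. At 2 and 4 h both exposed groups also lay below their own controls in 4 of 4 experiments, without a call.

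**Figure D3:**
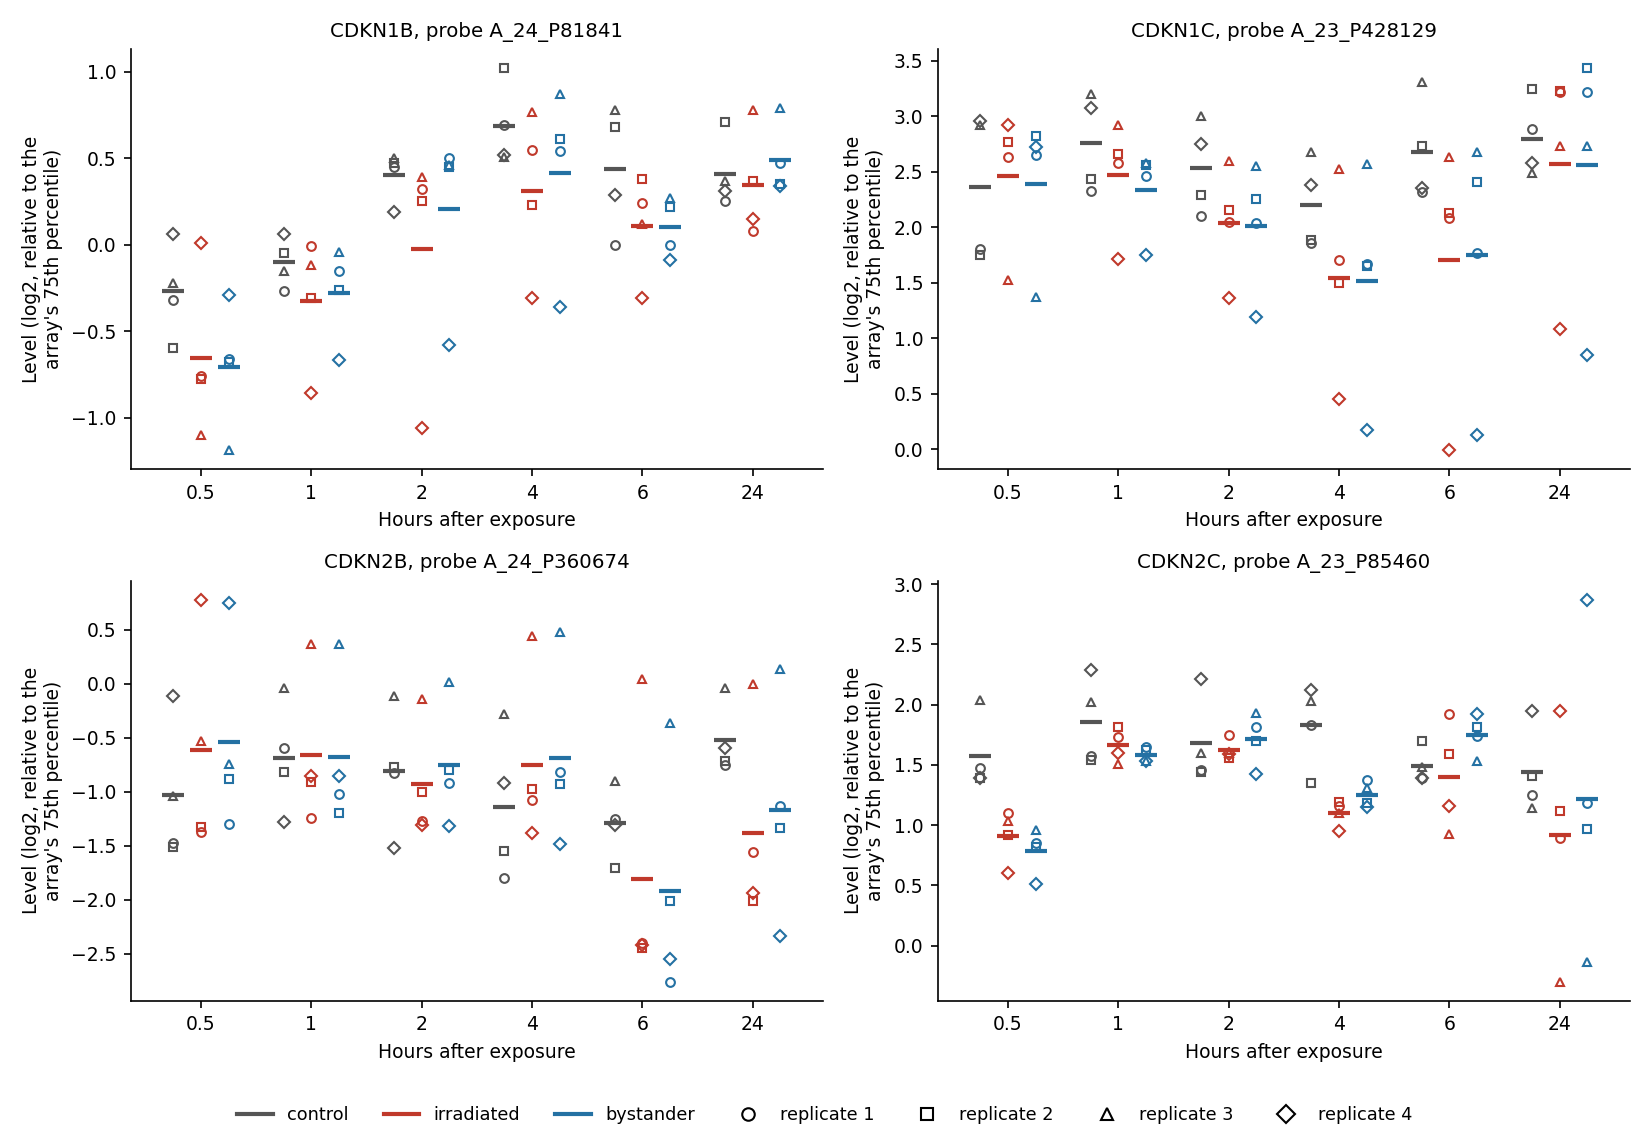
Log2 levels, relative to each array's 75th percentile, of 1 probe each of CDKN1B, CDKN1C, CDKN2B and CDKN2C by hours after exposure. Points are single arrays of control, irradiated and bystander cells (4 each, marked by replicate) and bars are group means; 1 exposed pair of CDKN1C values lies below the rest at every time, and all exposed CDKN2C values lie below the controls at 0.5 h.

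Of the INK4 genes, CDKN2C, which encodes p18, fell in both exposed groups at 0.5 h. The controls read 1.47, 1.39, 2.04 and 1.39, the irradiated cells 1.10, 0.92, 1.03 and 0.60, and the bystanders 0.85, 0.82, 0.96 and 0.51. Neither exposed group overlapped the controls. The log2 ratio was −0.66 ± 0.30 in irradiated cells (limma adjusted p = 0.0338) and −0.79 ± 0.24 in bystanders (0.0223), and the 2 treatments differed by 0.13 (95% interval −0.15 to 0.41). At 4 h the controls were 1.83, 1.35, 2.03 and 2.12 and the irradiated cells 1.16, 1.19, 1.10 and 0.95. The irradiated values were again all lower (−0.73 ± 0.43, limma adjusted p = 0.0996), and the bystander ratio was −0.58 ± 0.34 (0.18). At 1, 2 and 6 h the ratios lay between −0.27 and 0.26. In bystanders at 6 h CDKN2C was above control in 4 of 4 experiments (0.05 to 0.53), without a call. At 24 h the ratios were −0.52 ± 0.63 in irradiated cells and −0.22 ± 0.91 in bystanders, with overlapping groups. The 0.5 h calls were lost without scaling between arrays (−0.70, limma adjusted p = 0.317 for irradiated and −0.93, 0.12 for bystander cells, with medians of all probes at −0.07 and −0.15), and without the pairing (0.244 and 0.193). The irradiated call at 0.5 h also ended without experiment 2 (−0.72, limma adjusted p = 0.177) or 4 (−0.61, 0.161), and the bystander call without experiment 1 (−0.84, 0.12) or 2 (−0.86, 0.156). The 4 h call ended without experiment 1, 3 or 4 (−0.76, −0.67 and −0.59, limma adjusted p = 0.227, 0.383 and 0.405), without scaling (0.565), without the pairing (0.298) and under 5 further settings (0.103 to 0.226).

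CDKN2A, which encodes p16 and, from another reading frame, ARF, was not called in any comparison. The deposited files annotate both probes to the same CDKN2A transcript variant and give no probe position, so whether they also read the others was not tested. Over both probes and all times, the irradiated ratio to control lay between −0.29 and 0.02 (smallest limma adjusted p = 0.423) and the bystander ratio between −0.30 and 0.03. Both probes moved together over the centred arrays (r = 0.75). Irradiated and bystander cells differed by −0.16 to 0.16.

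CDKN2B, which encodes p15, was not called in any comparison. At 6 h the irradiated levels of A_24_P360674 were −2.40, −2.45, 0.05 and −2.42, against −1.25, −1.71, −0.90 and −1.31 in the controls and −2.76, −2.01, −0.36 and −2.55 in the bystanders. Experiment 3 was high and the other exposed cultures lay below all controls. The ratio was −0.51 ± 0.99 in irradiated cells (limma adjusted p = 0.357) and −0.63 ± 0.93 in bystanders (0.4). Both means depend on experiment 3: by experiment the differences were −1.15, −0.74, 0.95 and −1.11 in irradiated cells and −1.51, −0.31, 0.53 and −1.24 in bystanders. At 24 h the irradiated levels were −1.56, −2.01, 0.00 and −1.94 against −0.75, −0.71, −0.04 and −0.59, a ratio of −0.86 ± 0.65 that did not pass (limma adjusted p = 0.275). The bystanders then read −1.13, −1.34, 0.14 and −2.34, below their own controls except in experiment 3, also without a call. At 0.5 h this probe was higher in 4 of 4 experiments in both exposed groups, by 0.42 ± 0.36 in irradiated cells (limma adjusted p = 0.134) and 0.49 ± 0.31 in bystanders (0.116).

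The 8 genes whose levels followed A_23_P59210 most closely over the 72 arrays, centred within each trio of 1 time and experiment, were AEN (r = 0.90), GDNF (0.88), SESN1 (0.88), TNFRSF10B (0.84), TRIAP1 (0.82), GDF15 (0.82), TIGAR (0.81) and BTG2 (0.81). The arrays of a trio share an experiment, and the correlations are a description. Without scaling TRIAP1, GDF15 and TIGAR were not among the first 8 (r = 0.75, 0.80 and 0.79). AEN encodes a nuclease, GDNF a neurotrophic growth factor, SESN1 a sestrin, TNFRSF10B a death receptor for TRAIL and GDF15 a secreted cytokine of the TGF-β family. TIGAR encodes a regulator of glycolysis and BTG2 an antiproliferative protein. The genes were chosen on these arrays for following CDKN1A, so a similar contrast between treatments was fixed by the choice. Their median log2 ratio of irradiated to control was 0.81 at 2 h, 1.15 at 4 h and 0.93 at 6 h, and of bystander to control 0.17, 0.21 and 0.33. GDF15 had the highest ratios in irradiated cells, 2.87 at 4 h and 3.02 at 6 h. Its bystander ratio at 6 h was 1.69 ± 1.98. The other 5 inhibitors correlated with the CDKN1A probe at −0.39 to 0.00.

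**Figure D4:**
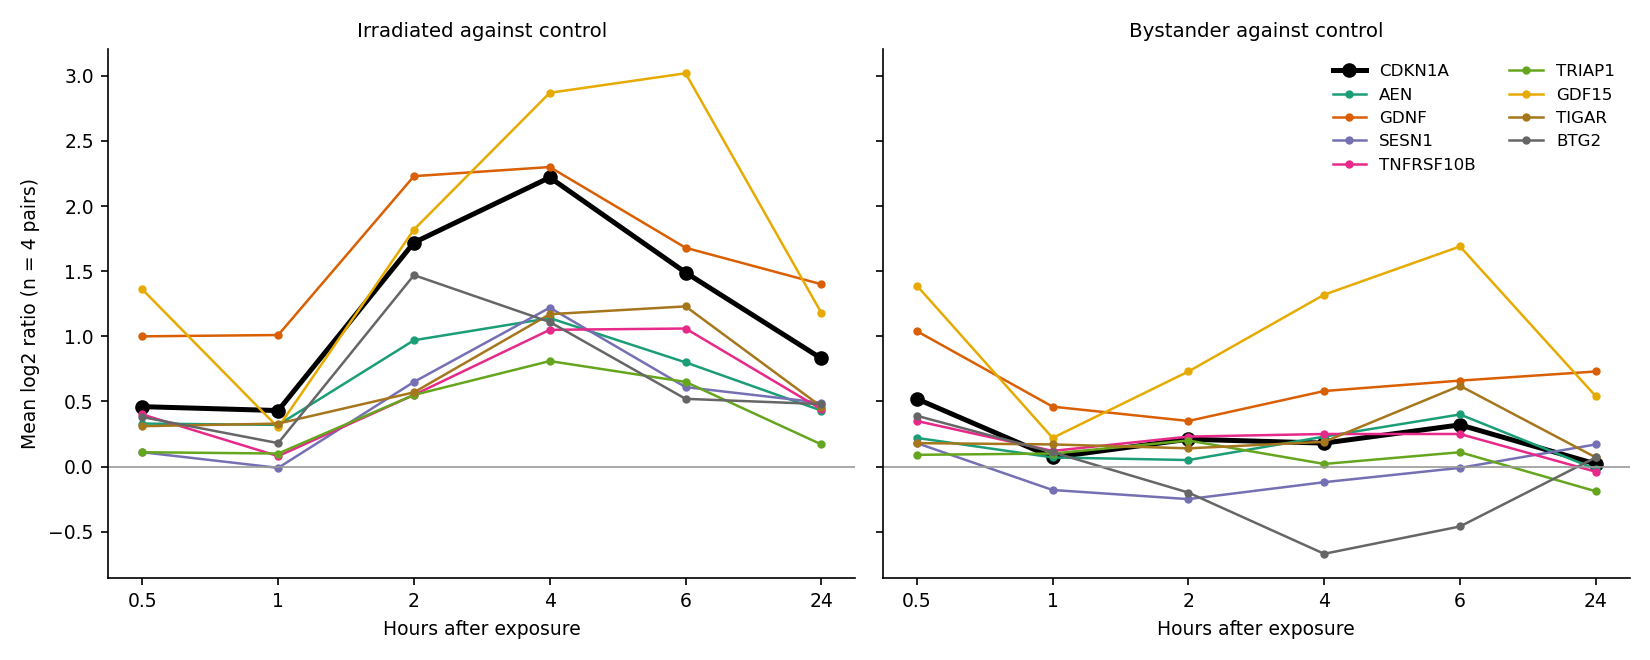
Mean log2 ratio to control over 4 experiments of CDKN1A and the 8 genes most correlated with it, in irradiated and bystander cells, by hours after exposure. The 8 genes, chosen for following CDKN1A on these arrays, have a median ratio of 1.15 in irradiated and 0.21 in bystander cells at 4 h.

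The partners and regulators of the inhibitors were followed in lists of 79 genes, of which 72 could be tested, each by its brightest probe. The shares of all probes given here also stand beside the counts of single lists below. In irradiated cells 4 rose and 1 fell at 0.5 h (6.94% of the list), 9 rose and 1 fell at 2 h (13.9%), and 4 rose and 3 fell at 6 h (9.72%), beside the 9.90%, 5.78% and 10.5% of all probes given above. The median log2 ratio of the list at 2 h was 0.13 in irradiated and 0.11 in bystander cells, and that of all probes 0.00 and 0.01. At 6 h the list medians were 0.12 and 0.13. For irradiated against bystander cells at 2 h the list median was −0.01. In irradiated cells limma called none at 1, 4 or 24 h (0%, 1.00% and 0.174% of all probes). There 25, 14 and 12 of 72 had an unadjusted p below 0.05, beside 6795 of 25245, 3786 of 25246 and 3341 of 25246 probes. In bystanders 2 rose and 2 fell at 0.5 h (5.56%, beside 7.02% of all probes) and none was called later, where 0 to 0.594% of all probes were, with 8 to 20 of 72 at an unadjusted p below 0.05, beside 2815 to 3987 of all probes. No listed gene was called between irradiated and bystander cells, where at most 0.0436% of all probes were (0 to 6 of 72 at an unadjusted p below 0.05, beside 100 to 1248 of all probes). Of the 26 list calls by brightest probe named below, left-out experiments kept 1 (without experiment 1), 3 (2), 11 (3) and 12 (4), none was kept in all 4 sets or without the pairing, and 4 were kept without scaling. A further 16 calls came from probes that are not the brightest of their gene, and of these 0 (without experiment 1), 2 (2), 4 (3) and 3 (4) were kept, with none kept without the pairing and 2 without scaling.

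Among the direct targets of INK4 proteins, the D-type cyclins CCND1, CCND2 and CCND3 and the kinases CDK4 and CDK6, none of the 5 was called by its brightest probe. The irradiated ratio of CCND1 was 0.12 to 0.39, that of CCND2 −0.22 to 0.08 and that of CCND3 −0.20 to 0.10. CDK6 read 0.23 to 0.57 and CDK4 −0.29 to −0.13. The probes of 2 genes disagreed: CCND1's A_24_P193011 was called higher in irradiated cells at 0.5 h (0.51 ± 0.22, limma adjusted p = 0.0547) and 6 h (0.77 ± 0.52, 0.0607), and CCND2's A_23_P139881 lower in bystanders at 0.5 h (−0.70 ± 0.46, 0.0799). Without scaling these 3 calls ended (limma adjusted p = 0.615, 0.227 and 0.294), and under normexp correction the CCND2 value was 0.07 with the median of all probes at 0.21. Of the 6 tested E-, A- and B-type cyclins and their kinases, 3 rose in irradiated cells at 2 h, namely CCNE1 (0.38 ± 0.24), CCNB2 (0.36 ± 0.19, and −0.02 without scaling, where the median of all probes was −0.38) and CDC2, the older name of CDK1 (0.73 ± 0.43). Of all probes 5.78% were called there. The median log2 ratio of the 6 genes at 2 h was 0.35 in irradiated and 0.38 in bystander cells, where none was called. For irradiated against bystander cells it was −0.05. At 6 h the medians against control were 0.29 in irradiated and 0.75 in bystander cells, without a call. CCNB1 fell in bystanders at 0.5 h (−0.46 ± 0.22). CDKN3, a phosphatase that acts on cyclin-dependent kinases, rose at 2 h (0.52 ± 0.19), 1 of 2 other inhibitors tested.

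Of the CDK-activating kinase and the CDC25 phosphatases (7 tested), CCNH, the cyclin of the activating kinase, rose at 0.5 h in irradiated (0.58 ± 0.18, limma adjusted p = 0.0396) and bystander cells (0.59 ± 0.24, 0.037), and in irradiated cells at 6 h (0.73 ± 0.25, 0.0356). MNAT1, which assembles that kinase, rose at 2 h (0.32 ± 0.10, and −0.06 without scaling against that median of −0.38) and 6 h (0.62 ± 0.47), and the phosphatase gene CDC25B fell at 6 h (−0.70 ± 0.62). The median ratio of these 7 genes at 2 h was 0.29 in irradiated and 0.33 in bystander cells, where none was called. Of the 10 genes of the retinoblastoma and E2F families, E2F1 (0.59 ± 0.32), E2F2 (0.81 ± 0.50) and RBL1 (0.58 ± 0.25) rose in irradiated cells at 2 h. E2F3 rose in irradiated cells at 0.5 h (0.44 ± 0.13). The median of these 10 at 2 h was −0.03 in irradiated and 0.05 in bystander cells. Of the 8 genes of p21 and p27 turnover, DTL, the substrate receptor of a ligase for p21, rose at 2 h (0.91 ± 0.54) and CKS1B, a cofactor in p27 turnover, at 6 h (0.65 ± 0.33). Of the 14 probes of that list 4 were called higher at 6 h, 3 of them for CKS1B and 1 for CUL4A, a ligase scaffold (A_24_P61467, 0.59 ± 0.33, limma adjusted p = 0.0818), whose brightest probe was not called (0.05). Without scaling the CUL4A probe read 0.23 (limma adjusted p = 0.478), and the calls of the other CKS1B probes also ended (0.192 and 0.562). The median of all probes at 6 h was then −0.34, and the CUL4A probe lay above it in that setting too. Of the 7 partners of p21 outside the kinases, PCNA, the replication clamp that p21 binds, rose at 6 h (0.91 ± 0.25, limma adjusted p = 0.0479). At 2 h 3 of the 14 probes of this list were called higher, all for NPM1, a nucleolar chaperone (0.35 to 0.55, limma adjusted p = 0.0593 to 0.0751), but its brightest probe was not called (0.29, adjusted p = 0.195). Without scaling the 3 NPM1 probes read −0.03 to 0.17, with the median of all probes at −0.38, and were not called.

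Of the 14 transcriptional regulators of CDKN1A, 2 were called. By time, 1 was called at 0.5 h in each exposed group, beside 9.90% of all probes in irradiated and 7.02% in bystander cells. In irradiated cells 2 were called at 6 h, beside 10.5% of all probes, so these counts lie near the shares of all probes. SMAD3, a mediator of TGF-β signalling, fell at 0.5 h in irradiated (−0.55 ± 0.20, limma adjusted p = 0.04) and bystander cells (−0.64 ± 0.20, 0.029) and at 6 h in irradiated cells (−0.47 ± 0.25, 0.0967). FOXO3, a forkhead factor, fell at 6 h (−0.58 ± 0.19, 0.0528). Of the 13 regulators of the CDKN2A-CDKN2B locus, ETS2 rose at 0.5 h in both groups (0.53 ± 0.09 in irradiated and 0.56 ± 0.25 in bystander cells), the Polycomb gene SUZ12 rose at 0.5 h in irradiated cells (0.54 ± 0.31) and the Polycomb gene CBX7 fell at 2 h (−0.47 ± 0.18). A second SUZ12 probe was also called higher in bystanders at 0.5 h (A_32_P24223, 0.53 ± 0.32, limma adjusted p = 0.0741) where the brightest was not (0.41, 0.161), and 1 probe of TBX3, a T-box repressor, was called lower in irradiated cells at 6 h (A_23_P13772, −0.60 ± 0.21, 0.0784) where the brightest was not (−0.24, 0.44). Without scaling the SUZ12 call ended (limma adjusted p = 0.69) and the TBX3 call did not (−0.96, 0.0411). At 6 h the median of all probes was then −0.34, with 284 probes called higher and 4157 lower. Genes named only through a probe that is not their brightest were chosen after their values were seen.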

How the data were processed

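Arrays were Agilent 1-colour (Cy3) arrays read with Feature Extraction 9.1.3.1, and the authors deposited the processed intensity of every spot. The deposited value table holds the same signals as log2 values without scaling between arrays (column medians 8.15 to 9.65), and 91.7% of its values lay within 0.01 of the log2 scanner values. The authors compared groups without normalization between arrays.

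Here each array's processed signals, averaged over the spots of a probe without spots flagged as non-uniform, were divided by the array's 75th percentile (log2 9.19 to 11.20) and put on the log2 scale. Of 43376 spots, 65.7 to 76.9% were well above background. Probes were removed if over 10% of arrays had them dim or non-uniform, which left 25246 of 41000. limma 3.58.1 (R 4.3.3) fitted each time alone (12 arrays) with treatment and experiment, eBayes with trend, and p adjusted (Benjamini-Hochberg) over the probes that passed. A call is an adjusted p below 0.10. Changes between neighbouring times came from 1 fit of 72 arrays with each trio of 1 time and number as a block. The ± values are SD over the 4 paired log2 differences. The scripts were tested on simulated data.

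Replicate numbers pair the samples, since the study's methods describe the 3 treatments as handled in parallel within an experiment. Deviations from the group means correlated by more than 0.1 in 12 of 12 same-number pairs at 0.5, 1, 2 and 24 h and in 10 of 12 at 4 and 6 h. The files give no sign of arrays deposited more than once. Named are every probe of the 6 inhibitors, up to 4 called genes of each list with the smallest adjusted p, all D-type cyclins and their kinases, and the 8 genes most correlated with CDKN1A's brightest probe. A gene of a list stands for its brightest passed probe. Members and lists were chosen with earlier results of these data known. Alternatives were no scaling, quantile normalization, normexp background correction, no filter, non-uniform spots kept, no experiment block, slide as a random block (slide correlation −0.248 to 0.0844), all arrays in 1 fit, no intensity trend, the authors' value table (scaled here to the 75th percentile of the probes that passed) and each experiment left out. Promoter windows came from RefSeq (GRCh38.p14), the arrays themselves name no build, and a promoter of CDKN1C and the protein sequences were not used here. One cell type marker is not reported here.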

Additional observations from a re-analysis of the deposited data

Results flagged for a closer look

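In 9 of 162 groups of 4 arrays, over the 9 tested probes, 1 array stood apart from the other 3 by more than Dixon's 95% limit, and chance flags about 1 group in 20, or 8.1 here. For CDKN1A, A_23_P59210 in irradiated replicate 2 at 0.5 h was at 3.04 with the others at 3.68 to 3.77, and A_24_P89457 in bystander replicate 2 at 0.5 h at −1.55 with the others at −0.33 to −0.29. For CDKN1B (A_24_P81841), replicate 4 at 2 h was at −1.06 in irradiated cells (others 0.25 to 0.39) and at −0.58 in bystanders (0.45 to 0.50). For CDKN1C, bystander replicate 3 at 0.5 h was at 1.37 (2.65 to 2.82) and bystander replicate 4 at 1 h at 1.75 (2.46 to 2.58). For CDKN2A (A_23_P43490), bystander replicate 3 at 2 h was at 2.32 (1.42 to 1.52). For CDKN2B (A_24_P360674), irradiated replicate 3 at 6 h was at 0.05 (−2.45 to −2.40). For CDKN2C, control replicate 3 at 0.5 h was at 2.04 (1.39 to 1.47).

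The irradiated and bystander ratios to control of CDKN1A differed at 2 h by the test of that difference itself, by 1.51 for A_23_P59210 (limma adjusted p = 0.0123) and 1.42 for A_24_P89457 (0.0658), higher in 4 of 4 experiments for each.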

How the results depend on the processing

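Without scaling the called ratios of CCNB2 (−0.02), MNAT1 (−0.06) and NPM1's A_24_P826646 (−0.03) in irradiated cells at 2 h changed sign, as did that of CCND2's A_23_P139881 in bystanders at 0.5 h under normexp (0.07). Scaling moves all probes of an array alike, and the first 3 values lay above the median of all probes there (−0.38). The CCND2 value lay below its median of 0.21. Values below are log2 differences of A_23_P59210 with limma adjusted p-values. At 0.5 h, quantile normalization gave 0.59 (0.0566) for irradiated and 0.62 (0.0548) for bystander cells against control, and the values of the authors, scaled here to the 75th percentile of the probes that passed, gave 0.49 (0.0975) and 0.55 (0.0871). Without the filter, irradiated against control was 2.22 (0.169) at 4 h and 1.49 (0.116) at 6 h, and irradiated against bystander at 2 h was 1.51 (0.12), which tests more probes. Without the replicate block, the pairs being broken, irradiated against control was 1.72 (0.572) at 2 h and 1.49 (0.172) at 6 h, and irradiated against bystander at 2 h was 1.51 (1). Normexp gave 1.99 (0.0654) for irradiated against bystander at 4 h, and the fit of all 72 arrays 2.04 (2.35e-05) there and 0.83 (0.0844) for irradiated against control at 24 h. Without scaling, irradiated against bystander at 2 h was 1.40 (0.142), and bystander against control −0.07 (median of all probes −0.26). Without scaling the median probe of irradiated against control shifted to −0.38 at 2 h, −0.34 at 6 h and −0.38 at 24 h, and of bystander against control to 0.42 at 4 h. All probes called in irradiated cells at 2 h then split into 68 higher and 6839 lower, from 781 and 679. The bystander steps between times, none of them called, were 0.14 (1 to 2 h), −0.02 (2 to 4 h) and 0.13 (4 to 6 h), and −0.33, 0.71 and −0.53 without scaling, where the median of all probes itself moved from 0.16 at 1 h to −0.26, 0.42 and −0.20 at 2, 4 and 6 h.

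Leaving out 1 experiment gave 1.91 to 2.60 at 4 h and 1.17 to 1.75 at 6 h for irradiated against control, 0.35 to 0.67 for bystanders at 0.5 h, 1.43 to 1.68 for irradiated against bystander at 2 h, and −0.31 to 0.37 for the bystander step from 2 to 4 h with 1 number left out at both times. Member calls against control numbered 9 for irradiated cells, 3 without the filter, 1 without the replicate block and 4 to 8 with 1 experiment left out. For bystanders they numbered 2, with 1 without scaling (a different result from these 2), 4 under normexp, 1 without the filter, 0 without the block, 1 in the fit of all arrays and 0 to 3 with 1 experiment left out. For irradiated against bystander they numbered 2, with 0 without scaling, 4 under normexp, 0 without the filter, 0 without the block, 1 without the trend and 0 to 2 with 1 experiment left out. Numbers of all probes called moved widely, for irradiated against control at 2 h from 2 without the block to 6907 without scaling. Under normexp they went from 55 to 384 for bystanders against control at 2 h, and from 2 to 23 for irradiated against bystander cells at 4 h. The cause of the other moves was not tested. The other 62 called results were each run under the 14 alternatives, and of these 868 runs the call was kept in 457, lost with the direction kept in 407 and lost with a change of sign in the 4 given first. The number of arrays limits the precision, and A_23_P204696 (CDKN1B) is dim, though well above background on 70 of 72 arrays.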

Other observations

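Over the whole array, irradiated and bystander cells differed in few probes with the main settings, and these were named after their values were seen. The fit of all 72 arrays called 51 probes at 4 h and 23 at 6 h. The main settings called 2 and 0 there (383 at an unadjusted p below 0.05 at 6 h, limma), and normexp correction called 23 at 4 h. At 2 h 11 probes were called, all higher in irradiated cells in 4 of 4 experiments. Beside the CDKN1A probes they were GDNF (1.88 ± 0.18), BTG2 (1.67 ± 0.25), SESN1 (0.90 ± 0.16 and 0.96 ± 0.15), AEN (0.92 ± 0.22), IER5, an immediate early gene (0.87 ± 0.25), PPM1D, a phosphatase that acts on p53 (0.83 ± 0.14), the kinase gene PLK3 (0.78 ± 0.24) and 1 probe without a gene name (0.92 ± 0.16). At 4 h 2 were called, the apoptosis gene BBC3 (1.42 ± 0.32, limma adjusted p = 0.0984) and GDNF (1.72 ± 0.28, 0.0984). The 2 h calls ended without experiment 1, 2 or 3 and without the replicate block, and without scaling 2 probes were called. No probe was called at 4 h without any one experiment, without scaling, under quantile normalization, without the filter, with non-uniform spots kept, without the block or without the intensity trend. CDKN1A was first of all probes by log2 difference at 4 h, where it did not pass with the main settings.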
